A study of Homo sapiens with 9 samples.

Results

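A set of 10 genes of the endoplasmic reticulum (ER) was followed across 3 treatments of LNCaP cells: HSPA5, DNAJB9, HERPUD1, MANF, SDF2L1, CRELD2, PDIA4, HYOU1, DNAJC3 and XBP1. Every Affymetrix probe set annotated to 1 of these symbols was taken, which gave 12 probe sets for the 10 genes, out of 22215 non-control probe sets and 11963 genes with a probe set of their own. DNAJB9 and PDIA4 had 2 probe sets each. The study used 1 cell line. LNCaP is an established human prostate cancer line that responds to androgen, and 10% charcoal-stripped serum, poor in steroids, was used for 2 days on every culture before treatment. The groups were 1 nM R1881, a synthetic androgen, with 20 µM gedunin, a plant limonoid known as an inhibitor of HSP90 function; 1 nM R1881 with DMSO; and vehicle, which was ethanol and DMSO. Each of the 3 groups held 3 arrays, which the labels call biological replicates, and no group received gedunin without R1881. The protocols give 24 h for all groups, while the titles of the R1881 arrays give 6 h, so the length of that treatment is not settled.

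The ER folds proteins that are bound for secretion or for membranes. When unfolded proteins gather there, the sensors IRE1, PERK and ATF6 start the unfolded protein response: IRE1 splices the XBP1 mRNA, and spliced XBP1 and cleaved ATF6 switch on genes for chaperones, folding enzymes and the removal of misfolded proteins. Luminal prostate epithelium, from which LNCaP cells take their character, is a secretory tissue that releases large amounts of protein such as prostate-specific antigen.

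The label check bears on every comparison. KLK3, which encodes prostate-specific antigen and is known to be induced by androgen, had a mean intensity of 7216 with gedunin plus R1881, of 1341 on R1881-labelled arrays and of 11839 on vehicle-labelled arrays. KLK2, TMPRSS2 and FKBP5, also known as androgen-induced, had the same order of groups. R1881-labelled arrays were thus the lowest and vehicle-labelled arrays the highest, opposite to the known effect of androgen, and both groups are called by their labels throughout. Any direction that involves them rests on those labels. Were the 2 labels exchanged, the comparison of gedunin with vehicle-labelled arrays would be the one made in the presence of androgen.

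Array medians lay between 52.4 and 54.5 intensity units. All 7 measured luminal markers (KLK3, KRT8, KRT18, HOXB13, FOLH1, CDH1 and EPCAM) lay above the lowest array median in each group, while 0 of 3 basal keratins did. The luminal markers together had the same order of groups as XBP1, DNAJB9 and HERPUD1 below, with summed levels of 15875 to 16638 with gedunin, 8016 to 8456 on R1881-labelled arrays and 25070 to 26775 on vehicle-labelled arrays, and 4 of the 7 (HOXB13, FOLH1, CDH1 and EPCAM) were higher on R1881-labelled than on vehicle-labelled arrays. The CDH1 call was lost without labelled vehicle array 1 (limma adjusted p = 0.0727) or labelled R1881 array 3 (0.0762). Of 4 neuroendocrine markers, summed to 161 to 164, 159 to 171 and 142 to 149 in the same groups, 2 passed a test. ENO2 was lower with gedunin than on R1881-labelled arrays (log2 fold change -0.26), higher with gedunin than on vehicle-labelled arrays (0.60) and higher on R1881-labelled than on vehicle-labelled arrays (0.86). CHGB, at a level under the array medians, was higher with gedunin than on R1881-labelled arrays (0.17, adjusted p = 0.0424), a call lost in 8 of the 9 fits that left out 1 array, the exception being the fit without labelled vehicle array 2. The part of these markers in the results was not tested. The 5 fibroblast genes summed to 371 to 393, 351 to 408 and 366 to 388 in the same groups, with 0 called. In each group 3 of the 5 lay above the lowest array median. The 4 measured leukocyte genes summed to 132 to 141, 127 to 136 and 129 to 141 in the same groups, with 0 called. In each group 1 of the 4 lay above the lowest array median. At an unadjusted p below 0.05 (limma), 1 was higher with gedunin than on R1881-labelled arrays. PTPRC, 1 of the 4, averaged 28.7, 28.3 and 29.5 on the gedunin, labelled R1881 and labelled vehicle arrays. The summed level of 5 markers of plasma cells, which are rich in these chaperones, ran from 152 to 169, from 141 to 177 and from 151 to 157. None of the 5 plasma cell genes passed the test in any comparison (limma), also at an unadjusted p below 0.05. Of them 2, 2 and 1 lay above the lowest array median on gedunin, labelled R1881 and labelled vehicle arrays. In RNA from whole cultures, fewer cells of a type and less RNA per cell cannot be told apart.

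The 10 genes are shown first by the DNA just upstream of their starts, because known binding elements of the response lie there. Upstream windows of 250 bases that end at the gene start were taken from RefSeq (GRCh38.p14), and all 10 genes had one (PDIA4 and XBP1 had 2, and the elements below lie in the upstream one of XBP1). ERSE, the ER stress response element that binds ATF6 together with the CCAAT factor NF-Y, was searched as CCAAT and CCACG with 9 unspecified bases between them. ERSE-II was searched as ATTGG and CCACG with 1 unspecified base between them, and the core of the unfolded protein response element as TGACGTGG, each on both strands. ERSE was found in 3 of the 10 genes, HSPA5, CRELD2 and XBP1, and in 0.074% of all 35116 promoter windows. ERSE-II was found in 3 others, HERPUD1, SDF2L1 and HYOU1, against 0.0513% of all windows. The element core was found in HYOU1, where it overlaps an ERSE-II, and in 0.612% of windows. The half-sites are common: CCAAT lay in the windows of all 10 genes and in 32.0% of all windows, and CCACG in all 10 and in 33.5%. Members were counted per gene and the shares per window. Known elements of the response were searched in genes of the response, so these counts are a description and not independent evidence. A match is a run of letters and not a measured binding site. Genes without a match can hold elements outside the window or with other letters.

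The 6 windows with a match are printed 5′ to 3′ along the gene's strand, with the fixed letters of each match in capitals. They lie at chr9:125241344-125241593 (minus strand) for HSPA5, chr22:49918384-49918633 (plus) for CRELD2, chr22:28800570-28800819 (minus) for XBP1, chr16:56931892-56932141 (plus) for HERPUD1, chr22:21642052-21642301 (plus) for SDF2L1 and chr11:119057206-119057455 (minus) for HYOU1.
HSPA5: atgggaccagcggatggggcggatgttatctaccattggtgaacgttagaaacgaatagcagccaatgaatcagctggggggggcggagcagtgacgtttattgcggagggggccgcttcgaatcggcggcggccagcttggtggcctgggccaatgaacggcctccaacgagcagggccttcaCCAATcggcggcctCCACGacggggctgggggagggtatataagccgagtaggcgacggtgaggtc
CRELD2: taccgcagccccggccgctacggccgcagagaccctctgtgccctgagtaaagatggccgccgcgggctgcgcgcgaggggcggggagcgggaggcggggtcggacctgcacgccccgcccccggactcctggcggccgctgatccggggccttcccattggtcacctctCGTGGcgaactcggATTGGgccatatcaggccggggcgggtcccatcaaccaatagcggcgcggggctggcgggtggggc
XBP1: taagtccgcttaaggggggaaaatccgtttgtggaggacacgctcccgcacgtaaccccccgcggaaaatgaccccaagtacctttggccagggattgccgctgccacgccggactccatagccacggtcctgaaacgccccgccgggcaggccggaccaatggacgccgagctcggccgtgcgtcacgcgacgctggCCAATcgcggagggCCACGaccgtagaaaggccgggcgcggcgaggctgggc
HERPUD1: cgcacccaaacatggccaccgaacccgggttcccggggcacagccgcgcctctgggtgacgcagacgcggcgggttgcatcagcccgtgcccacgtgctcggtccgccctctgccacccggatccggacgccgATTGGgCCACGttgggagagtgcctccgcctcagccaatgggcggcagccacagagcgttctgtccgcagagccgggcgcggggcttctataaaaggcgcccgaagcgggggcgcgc
SDF2L1: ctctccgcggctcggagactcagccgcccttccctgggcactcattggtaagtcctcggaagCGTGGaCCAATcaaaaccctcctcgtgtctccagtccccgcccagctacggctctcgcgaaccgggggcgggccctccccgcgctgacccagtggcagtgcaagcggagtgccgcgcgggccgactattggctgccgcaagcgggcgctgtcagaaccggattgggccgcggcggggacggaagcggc
HYOU1: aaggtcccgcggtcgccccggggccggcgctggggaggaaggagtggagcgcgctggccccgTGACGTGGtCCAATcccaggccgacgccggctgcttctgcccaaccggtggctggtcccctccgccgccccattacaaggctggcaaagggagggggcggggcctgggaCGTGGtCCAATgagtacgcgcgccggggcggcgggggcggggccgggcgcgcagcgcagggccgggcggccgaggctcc
The ERSE of HSPA5 spanned 66 to 48 bases before the start, that of CRELD2 80 to 62 and that of XBP1 52 to 34, so all 3 lay close to the start. The ERSE-II of HERPUD1 lay 117 to 107 bases before the start and that of SDF2L1 188 to 178. HYOU1 had 2 copies, at 185 to 175 and at 79 to 69.

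**Figure D1:**
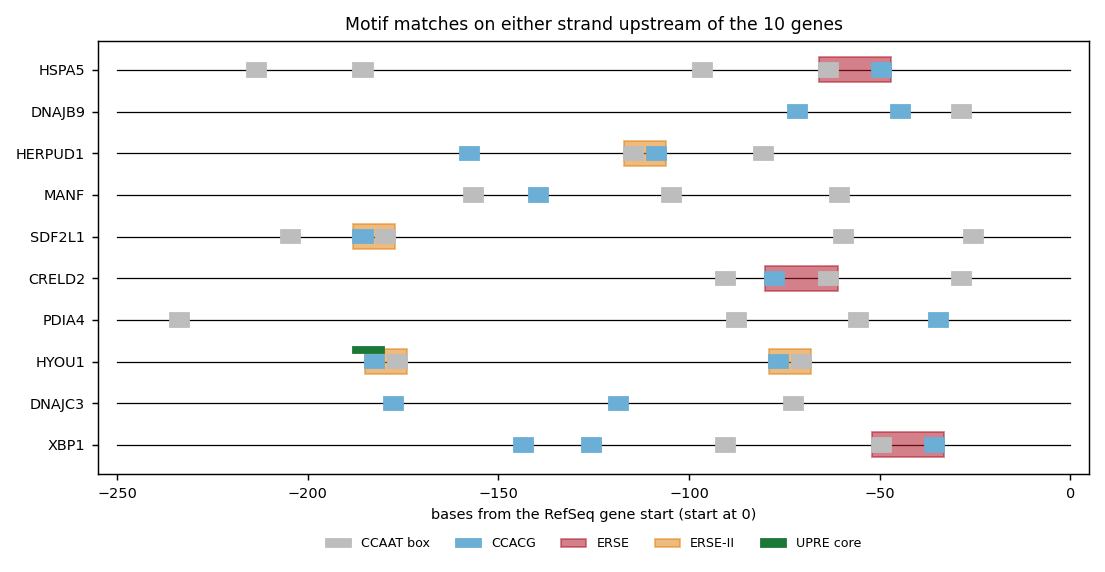
Motif matches on either strand in the 250 bases before the start of each of the 10 genes; the x axis is the distance from the start in bases, and each row is 1 gene (for PDIA4 and XBP1, the upstream of their 2 listed starts). Boxes mark ERSE (3 genes), ERSE-II (3 genes, 2 copies in HYOU1), the element core (HYOU1) and the CCAAT and CCACG half-sites (all 10 genes).

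XBP1 encodes the transcription factor of the IRE1 branch. It (200670_at) measured 612, 599 and 604 on the gedunin plus R1881 arrays, 461, 422 and 478 on R1881-labelled arrays, and 718, 756 and 716 on vehicle-labelled arrays. The 3 groups did not overlap, with gedunin in the middle. XBP1 had the smallest rise of the 10 genes on the gedunin arrays against R1881-labelled arrays (log2 fold change 0.42 ± 0.06, SE, limma adjusted p = 0.000155), and it was lower than on vehicle-labelled arrays (-0.27 ± 0.06, adjusted p = 0.00455). The deposited values give 1 level for the gene and do not separate spliced from unspliced XBP1 mRNA.

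HSPA5 encodes BiP, the ER member of the HSP70 family. It (211936_at) measured 5299, 5150 and 5346 with gedunin, 2885, 3095 and 3085 on R1881-labelled arrays, and 5218, 5500 and 5056 on vehicle-labelled arrays. The gedunin and labelled vehicle arrays overlapped, and the labelled R1881 arrays lay below both. The gedunin arrays were 1.74-fold higher than R1881-labelled arrays (0.80 ± 0.06, adjusted p = 3.16e-07). Against vehicle-labelled arrays the log2 difference was 0.00, with a 95% interval from -0.12 to 0.13, and did not pass.

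HYOU1 encodes GRP170, a large ER chaperone that exchanges nucleotide on BiP. It (200825_s_at) measured 1234, 1124 and 1339 with gedunin, 463, 500.2 and 496 on R1881-labelled arrays, and 1235, 1153 and 1199 on vehicle-labelled arrays. As for HSPA5, gedunin and labelled vehicle overlapped and labelled R1881 lay apart. The gedunin arrays were 2.53-fold higher than R1881-labelled arrays (1.34 ± 0.07, adjusted p = 1.96e-08), and their difference from labelled vehicle did not pass (0.04, 95% interval -0.11 to 0.19).

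DNAJB9 encodes ERdj4, a J-domain partner of BiP that also acts on IRE1, and of the 10 genes it had the widest range of group means on the log2 scale. Its brighter probe set (202842_s_at) measured 511, 548 and 498 with gedunin, 112, 115 and 113 on R1881-labelled arrays, and 739, 805 and 742 on vehicle-labelled arrays. No 2 groups overlapped, and the labelled vehicle arrays were highest. The fold was 4.58 for gedunin over labelled R1881 (2.19 ± 0.06, adjusted p = 7.12e-11), and 99.9% of all probe sets had a smaller log2 fold change there. Against vehicle-labelled arrays, the gedunin arrays were lower (-0.55 ± 0.06, adjusted p = 1.41e-05) and R1881-labelled arrays were 6.72-fold lower (-2.75 ± 0.06, adjusted p = 5.54e-12). The dimmer probe set (202843_at) measured 132, 135 and 131 with gedunin, 21.5, 27.8 and 25.0 on R1881-labelled arrays, and 150.2, 170.5 and 156 on vehicle-labelled arrays. It gave the same order, with 2.43 and -2.69 in the comparisons that use labelled R1881, where its level lay below the array medians and its fold is approximate. Its smaller fall against labelled vehicle (-0.26 ± 0.08, adjusted p = 0.0449) lost the call in 7 of the 9 fits that left out 1 array, the exceptions being those without labelled R1881 array 1 or 2.

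DNAJC3 encodes p58IPK, another J-domain co-chaperone of BiP. It (208499_s_at) measured 373, 380 and 277 with gedunin, 127, 106 and 105 on R1881-labelled arrays, and 261, 267 and 261 on vehicle-labelled arrays. The third gedunin array lay much nearer to the labelled vehicle arrays than the other two, and the groups still did not overlap. Gedunin was 3.02-fold above labelled R1881 (1.60 ± 0.11, adjusted p = 2.76e-07). The rise over labelled vehicle (0.37 ± 0.11, adjusted p = 0.0282) lost its call without gedunin array 1 or 2 (adjusted p = 0.123 and 0.126) and without labelled vehicle array 1, 2 or 3 (0.0795, 0.0635 and 0.0765). Unlike DNAJB9, its level with gedunin stood above that on vehicle-labelled arrays.

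PDIA4 encodes ERp72, a disulfide isomerase of the ER. The brighter probe set (211048_s_at) measured 980, 985 and 1016 with gedunin, 299.7, 293 and 335 on R1881-labelled arrays, and 761, 761 and 826 on vehicle-labelled arrays. All 3 groups were apart, with gedunin highest. Its log2 fold change was 1.69 ± 0.06 for gedunin against labelled R1881 (adjusted p = 1.28e-09) and 0.34 ± 0.06 against labelled vehicle (adjusted p = 0.00142). The second probe set (208658_at) ran from 305 to 351 with gedunin, from 111 to 124 on R1881-labelled arrays and from 223 to 269 on vehicle-labelled arrays, again without overlap. It gave 1.45 ± 0.08 and 0.42 ± 0.08 in the same comparisons (adjusted p = 3.94e-08 and 0.00178), so both probe sets had the same signs and calls.

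CRELD2, a cysteine-rich protein of the ER and secretory route that ER stress induces, was the member with the largest rise over labelled vehicle. Its probe set (218358_at) measured 1524, 1589 and 1691 with gedunin, 412, 384 and 402 on R1881-labelled arrays, and 926, 892 and 925 on vehicle-labelled arrays. The gedunin arrays stood clear above both other groups. They were 4.01-fold above labelled R1881 (2.00 ± 0.06, adjusted p = 1.17e-10) and 1.75-fold above labelled vehicle (0.81 ± 0.06, adjusted p = 4.28e-07).

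MANF encodes a small ER-resident protein that is secreted under stress. It (202655_at) measured 1557, 1499 and 1583 with gedunin, 447, 474 and 405 on R1881-labelled arrays, and 1190, 1314 and 1203 on vehicle-labelled arrays. No groups overlapped and gedunin was highest. MANF rose 3.51-fold against labelled R1881 (1.81 ± 0.07, adjusted p = 1.18e-09) and 1.25-fold against labelled vehicle (0.32 ± 0.07, adjusted p = 0.00337).

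SDF2L1 encodes an ER-resident partner of chaperone complexes. It (218681_s_at) measured 545, 499 and 555 with gedunin, 164, 153 and 181 on R1881-labelled arrays, and 475, 456 and 453 on vehicle-labelled arrays. Gedunin and labelled vehicle did not overlap, though they lay close. The rise over labelled R1881 was 3.22-fold (1.69 ± 0.07, adjusted p = 2.72e-09). The difference from labelled vehicle (0.21 ± 0.07, adjusted p = 0.0509) did not pass, and it did pass when gedunin array 2 (adjusted p = 0.0366) or labelled R1881 array 2 or 3 (0.0376 and 0.0234) was left out.

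HERPUD1 encodes an ER membrane protein that helps to bring misfolded proteins to degradation. It (217168_s_at) measured 1741, 1723 and 1741 with gedunin, 741, 785 and 839 on R1881-labelled arrays, and 2504, 2562 and 2504 on vehicle-labelled arrays. The groups were well apart, with gedunin in the middle. HERPUD1 was 2.20-fold higher with gedunin than on R1881-labelled arrays (1.14 ± 0.06, adjusted p = 1.47e-08), and against labelled vehicle it was lower (-0.54 ± 0.06, adjusted p = 1.39e-05). Its fall on R1881-labelled arrays against labelled vehicle was 3.20-fold (-1.68 ± 0.06, adjusted p = 2.51e-10), next in size to that of DNAJB9.

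**Figure D2:**
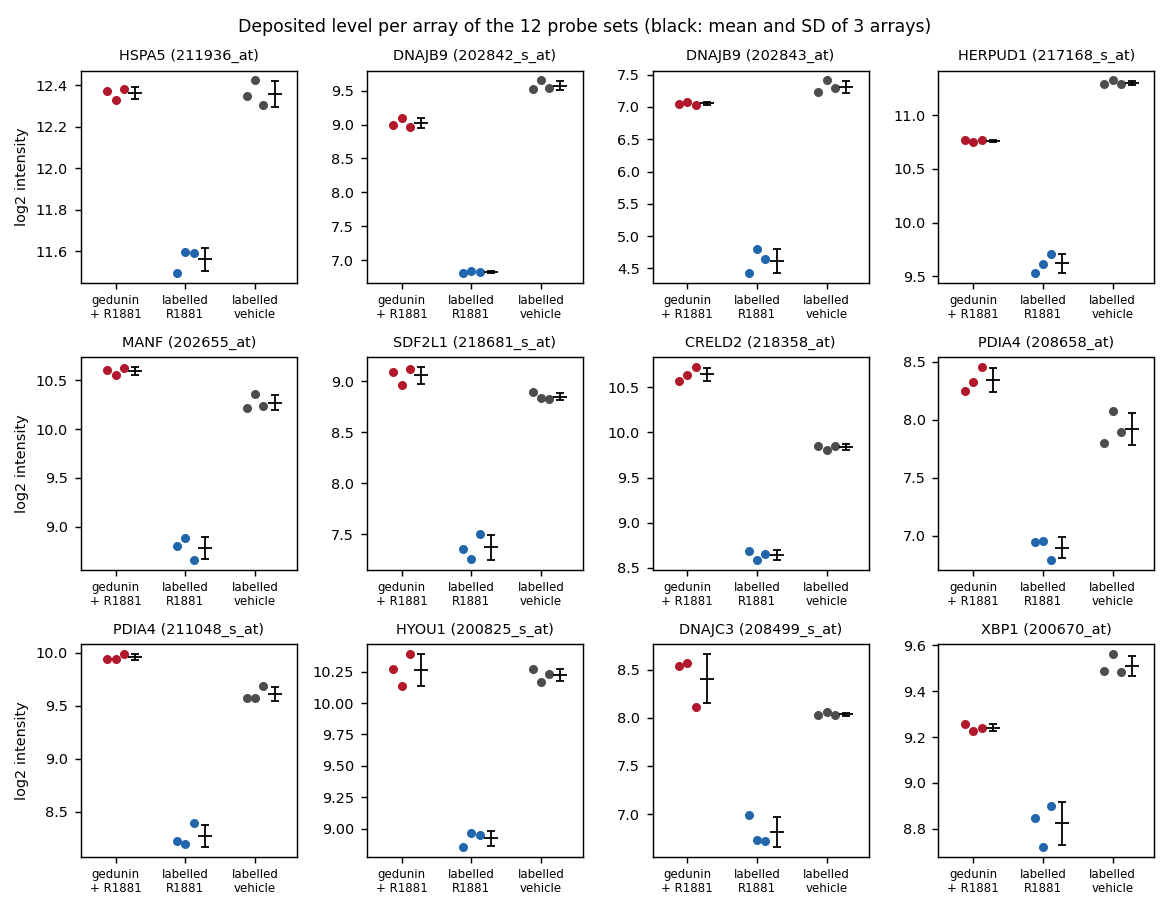
Deposited level of each of the 12 probe sets as log2 intensity (y axis, a separate range per panel) on the 9 arrays, by group (x axis); coloured points are arrays and black marks the mean and SD of 3 arrays. In every panel the 3 R1881-labelled arrays lie below all other arrays, while the order of gedunin plus R1881 and labelled vehicle changes from gene to gene.

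Set side by side, all 12 probe sets rose on gedunin arrays relative to R1881-labelled arrays and 0 fell. Of all 22215 probe sets, 24.3% were called, 12.4% higher and 11.9% lower (limma, Benjamini-Hochberg). The 12 all had a mean above the lowest array median. In a fit of the 11337 probe sets with such a mean, 44.5% were called. The median log2 fold change was 1.64 for the 12 probe sets and -0.01 for all probe sets. Of the 12, 10 rose at least 2-fold, which 1.45% of all probe sets did, and the exceptions were HSPA5 and XBP1. The 12 did not overlap between these groups, where 16.6% of all probe sets were likewise higher without overlap. No member probe set was lower at an unadjusted p below 0.05 either. The genes were chosen with results of these arrays known, so these counts describe the genes and are not independent evidence.

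On R1881-labelled arrays against vehicle-labelled arrays, all 12 probe sets were lower and 0 higher, where 27.0% of all probe sets were called, 12.2% lower and 14.8% higher. Without dim probe sets 46.5% of 11337 were called. The groups were apart for all 12, which 17.1% of all probe sets were in this direction. The median was -1.32, against 0.00 for all probe sets, and 10 of the 12 fell at least 2-fold, against 1.98% of all. HSPA5 (-0.80 ± 0.06) and XBP1 (-0.69 ± 0.06) fell least, while MANF and SDF2L1 were at -1.49 and -1.48, and HERPUD1 and DNAJB9 fell most. No member was higher at an unadjusted p below 0.05.

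The comparison of gedunin plus R1881 with labelled vehicle split the members. CRELD2, PDIA4, DNAJC3 and MANF were higher, with 5 probe sets, and DNAJB9, HERPUD1 and XBP1 were lower, with 4, while the probe sets of HSPA5, HYOU1 and SDF2L1 did not pass. Among all probe sets 23.5% were called, 12.9% higher and 10.6% lower. Without dim probe sets 42.7% of 11337 were called, and 10 of the 12. The groups did not overlap for 10 of the 12, where 17.8% of all probe sets were higher and 17.7% lower without overlap. The member median was 0.12 against -0.01 for all probe sets, and 0 members rose or fell at least 2-fold, which 0.932% and 1.04% of all probe sets did. The log2 fold changes ran from -0.55 for DNAJB9 to 0.81 for CRELD2, with standard errors per gene between 0.06 and 0.11. Differences between the genes were not tested. The 3 comparisons share arrays, and the fold changes of each follow from those of the others, so they are not separate findings.

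The order of the groups took 2 forms. In HSPA5, MANF, SDF2L1, CRELD2, PDIA4, HYOU1 and DNAJC3 the mean with gedunin was highest, labelled vehicle next and labelled R1881 lowest, with the upper 2 groups not distinguished by the test for HSPA5, HYOU1 and SDF2L1. In DNAJB9, HERPUD1 and XBP1 labelled vehicle was highest, gedunin next and labelled R1881 lowest, and all neighbours differed by the test. The mean log2 level of the 10 genes was 10.04, 10.02 and 10.03 on the gedunin arrays, 8.56, 8.54 and 8.59 on R1881-labelled arrays, and 9.95, 9.98 and 9.95 on vehicle-labelled arrays.

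**Figure D3:**
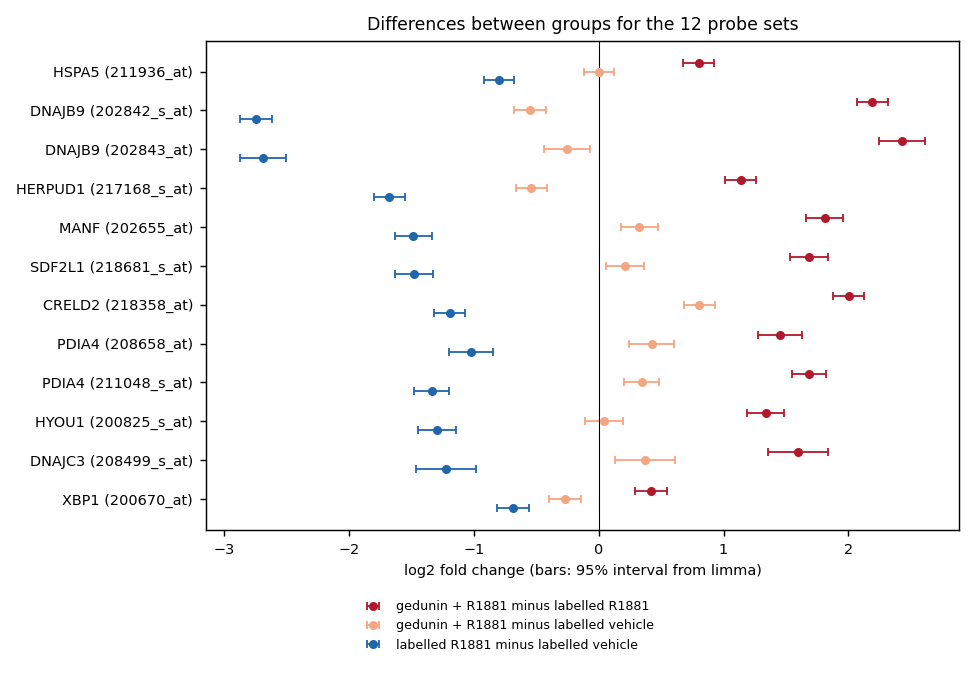
Log2 fold change (x axis) of each of the 12 probe sets in the 3 comparisons, with 95% intervals from limma. Gedunin against labelled R1881 lies right of 0 for all 12, labelled R1881 against labelled vehicle left of 0 for all 12, and gedunin against labelled vehicle falls on both sides, from -0.55 to 0.81.

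The rest of the secretory pathway was read from lists of related genes, 1 probe set per gene (the brightest). For gedunin against labelled R1881, 13.7% of all genes were called higher and 13.0% lower. Few listed genes were dim, and in the fit without dim probe sets 2609 of 11337 were higher and 2441 lower. Among ER folding and oxidation genes, 12 of 15 measured rose and 0 fell (median 0.72). They included ERP44, which retains folding enzymes in the ER (1.22 ± 0.06), and DNAJC10, a reductase with a J domain (1.17 ± 0.08). HSP90B1, the ER paralog of HSP90 also known as GRP94, rose by 1.07, PDIA6 by 0.93 and the collagen-folding isomerase PPIB by 0.88. ERP29, ERO1B and UGGT1 did not pass. UGGT1 stood at 0.36 ± 0.12 (limma adjusted p = 0.0518). It did pass in some other fits, such as without dim probe sets (0.0363) or with the replicate number as a block (0.017). The other 2 ERP44 probe sets gave 0.17 and 0.38, and the other HSP90B1 probe set 0.64.

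ER-associated degradation genes rose in 11 of 12 and fell in 0 (median 0.54) in the same comparison, with DERL2, a subunit of the export channel, at 1.00 ± 0.07 and EDEM3, a mannosidase that marks misfolded glycoproteins, at 0.79 ± 0.09. OS9 did not pass. Genes of translocation into the ER rose in 17 of 20 and fell in 1 (median 0.81). SSR3, a subunit of the translocon-associated complex, rose by 1.72 ± 0.14 and SPCS3, of the signal peptidase, by 1.29 ± 0.06, while SRP9 of the signal recognition particle fell by 0.27. All 8 measured oligosaccharyltransferase genes, which attach N-glycans, rose (median 0.87), led by the catalytic subunit STT3A (1.26 ± 0.06) and RPN1 (1.16 ± 0.06). None of the lists with a count of 0 falls had a member lower at an unadjusted p below 0.05.

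Among 8 sensor and protease genes 5 rose and 1 fell (median 0.24). EIF2AK3, the gene of PERK, rose by 0.93 ± 0.09 and CREB3L2, an ER-bound transcription factor, by 0.87 ± 0.08. MBTPS2, the site-2 protease that releases ATF6, was at -0.28 ± 0.09 (adjusted p = 0.0316), a call lost without gedunin array 1 or 3 or labelled R1881 array 1 or 2. In the PERK-ATF4 arm, whose transcription factor ATF4 drives amino acid and stress genes, 10 of 11 rose and 0 fell (median 1.22), with the stress factor ATF3 at 2.51 ± 0.08 and NUPR1 at 1.44 ± 0.05.

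On R1881-labelled arrays against labelled vehicle, 16.3% of all genes were called higher and 13.2% lower. In the fit without dim probe sets, 2834 of 11337 were higher and 2434 lower. Here 11 of 15 folding genes were lower and 1 higher (median -0.66). DNAJC10 was at -1.97 ± 0.08 and ERP44 at -1.04 ± 0.06, though its other probe sets gave -0.15 and -0.06 and were not called. ERP29 was the gene higher, at 0.22. Of 12 degradation genes 8 were lower and 0 higher, also at an unadjusted p below 0.05 (median -0.36), with UBE2J1, an ER-bound ubiquitin-conjugating enzyme, at -1.78 ± 0.06 and EDEM3 at -1.47 ± 0.09. Of 20 translocation genes 16 were lower and 1 higher (median -0.77). SSR3 was at -2.06 ± 0.14 and SPCS3 at -1.51 ± 0.06, while SRP9 was at 0.28. All 8 oligosaccharyltransferase genes fell (median -0.57), STT3A at -0.98 and RPN1 at -0.94. Of 8 sensor genes 4 were lower and 0 higher (1 at an unadjusted p below 0.05), with CREB3L2 at -1.31 ± 0.08 and EIF2AK3 at -1.10 ± 0.09. In the PERK-ATF4 arm 7 of 11 were lower and 0 higher, also at an unadjusted p below 0.05 (median -0.35), ATF3 at -0.67 and CEBPB at -0.65, where the 10 genes had a median of -1.32.

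Against vehicle-labelled arrays the gedunin arrays had 4 of 15 folding genes higher and 2 lower (median 0.08), where 14.8% of all genes were called higher and 11.4% lower. Without dim probe sets, 2601 of 11337 probe sets were higher and 2235 lower. The numbers of folding and degradation genes called higher stood near that larger share. HSP90B1 was at 0.34 and ERP29 at 0.25, and DNAJC10 (-0.79 ± 0.08) and FKBP2 (-0.50 ± 0.07) were lower. Degradation genes split into 3 higher and 3 lower of 12 (median 0.04), with UFD1 at 0.51 and FAF2 at 0.29, UBE2J1 at -1.04 ± 0.06 and EDEM3 at -0.68. Translocation genes split into 7 higher and 3 lower of 20 (median -0.03), with SPCS2 at 0.41, SRP54 at 0.40, SRP19 at -0.88 ± 0.06 and SSR1 at -0.44. Of 8 oligosaccharyltransferase genes 5 rose and 0 fell, also at an unadjusted p below 0.05 (median 0.24), with MAGT1 at 0.51 and DAD1 at 0.36. Of the sensors 1 was higher and 2 lower, CREB3L2 at -0.45 and MBTPS2 at -0.43. The higher one, ATF6 at 0.22 ± 0.06 (adjusted p = 0.021), lost its call without gedunin array 1 or 2 or labelled vehicle array 1 or 3, and its other probe set gave 0.06 and was not called. In the PERK-ATF4 arm 9 of 11 rose and 0 fell, also at an unadjusted p below 0.05 (median 0.73), with ATF3 at 1.85 ± 0.08 and DDIT3, the gene of CHOP, at 1.35 ± 0.08. Its median stood beside 0.12 for the 10 chaperone and XBP1 genes on the same arrays. The difference between these lists was not tested.

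**Figure D4:**
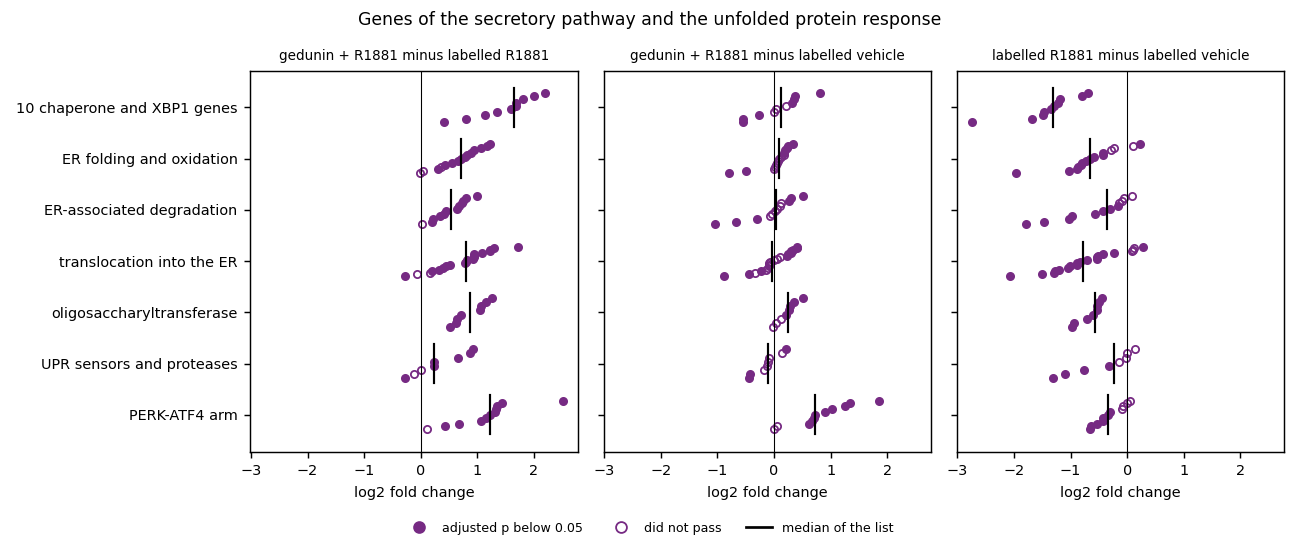
Log2 fold change (x axis) of each measured gene by list (rows) in the 3 comparisons (panels); filled points passed an adjusted p of 0.05, open points did not, and the black bar is the list's median. The 10 chaperone and XBP1 genes have medians of 1.64, 0.12 and -1.32, and the PERK-ATF4 arm 1.22, 0.73 and -0.35.

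Some genes outside the 10 followed them closely. Among 554 genes above the lowest array median whose group means spanned at least 1 on the log2 scale, the 5 with the highest Pearson correlation with the mean z-score of the 10 genes over 9 arrays were SEC24D, TMED9, SSR2, MYDGF and SEC61B, with r between 0.994 and 0.997. The 9 arrays fall into the 3 groups, so r mostly reflects the group means and is given as a description. SEC24D encodes a cargo adaptor of the COPII coat, TMED9 a cargo receptor of ER to Golgi traffic, and SSR2 and SEC61B subunits at the translocon. MYDGF encodes a secreted growth factor. SEC24D measured 209, 195 and 199.8 with gedunin, 30.8, 28.5 and 36.4 on R1881-labelled arrays, and 224, 197 and 220.03 on vehicle-labelled arrays, so that its level on R1881-labelled arrays lay below the array medians and its folds are approximate. TMED9 averaged 1694 with gedunin, 677 on R1881-labelled arrays and 1807 on vehicle-labelled arrays. For all 5 genes the difference between gedunin and labelled vehicle did not pass (log2 fold changes from -0.09 to -0.06). The choice by likeness favours such genes, since the mean level of the 10 genes was close in these groups. Each of the 10 genes correlated with the mean of the other 9 at r between 0.881 (XBP1) and 0.994 (HSPA5).

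**Figure D5:**
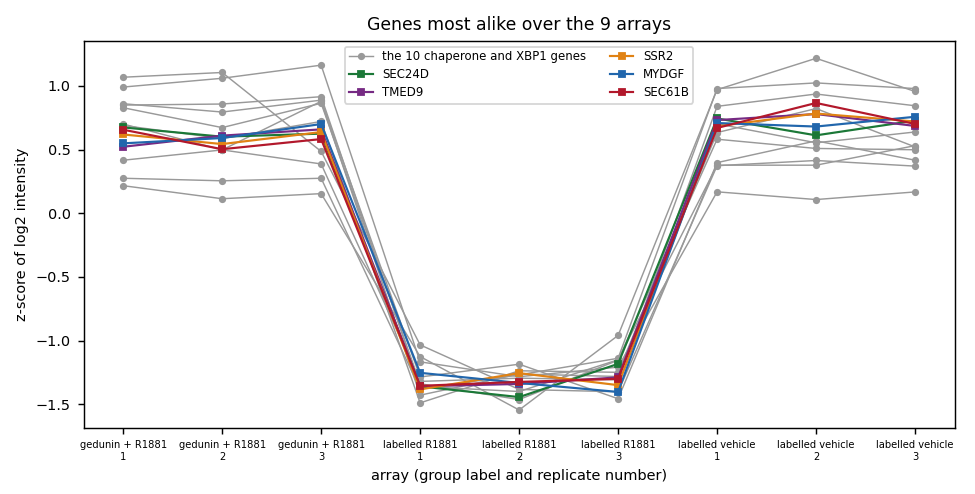
Z-score of log2 intensity (y axis) on the 9 arrays (x axis) for the 10 genes (grey) and the 5 genes most like them (coloured). All lines drop on the 3 R1881-labelled arrays, where the grey lines also lie closest together. Each gene is scaled to its own spread, so this closeness does not mean falls of equal size. Against labelled vehicle the log2 fold changes ran from -0.69 (XBP1) to -2.75 (DNAJB9).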

How the data were processed

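Total RNA of 9 LNCaP cultures was extracted with Trizol and biotin-labelled, per the labels' protocols. Each probe set has 1 linear intensity per array, as deposited by the authors. The submitters' processing notes name RMA, which normalises arrays by quantiles, so that a global change in RNA content is invisible. Its software, version and chip definition were not given in the sources used here. Precision is limited by 3 arrays per group.

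Values were log2-transformed. A pair of equal deposited values within a group occurred in 2 of the 12 probe sets (HERPUD1 and PDIA4). The 22277 probe sets hold 62 controls, 19064 with 1 symbol in the platform annotation, 1043 with several and 2108 with none. Matching of identifiers to RefSeq (GRCh38.p14) changed 0 symbols, and 12 probe sets found no match. The fit used limma 3.58.1 (R 4.3.3) over all 9 arrays (lmFit with 1 coefficient per group, eBayes without trend). Tests were two-sided, with Benjamini-Hochberg adjustment over 22215 probe sets and a threshold of 0.05. Errors of fold changes are standard errors. The limma fit was tested on simulated data, for the comparison of gedunin with labelled R1881 only.

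The members and lists were chosen with earlier results of these data known. Named genes are the 10 genes in all their probe sets, the 2 largest called rises and falls of each list per comparison, androgen genes for the label check and the 5 genes most alike. HSP90B1, PDIA6, PPIB and genes that did not pass were named after their values were seen. Lists use the brightest probe set of a gene. Of 74 list genes, 33 had several, with 0 called in opposite directions and 7, 6 and 5 with an uncalled probe set beside a called one for gedunin against labelled R1881, gedunin against labelled vehicle and labelled R1881 against labelled vehicle. Listed genes without such a probe set were not analysed here.

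Deviations from group means were compared between arrays with the same replicate number. They correlated at 0.11 to 0.23 between labelled R1881 and labelled vehicle, and below 0 for the other pairs of groups. Arrays of different number correlated at -0.20 to 0.08 between labelled R1881 and labelled vehicle, and at -0.11 to 0.17 for the other pairs of groups. The deviations of a group are centred on its mean, so these correlations depend on one another. Whether the replicate numbers pair these arrays was not tested. Alternatives changed the filter, offset, normalisation, variance model, arrays fitted and probe sets per gene, added the replicate number as a block, and left out each array in turn.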

Additional observations from a re-analysis of the deposited data

How the results depend on the processing

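The call counts of the 12 probe sets were recomputed under 19 other fits. Counts for gedunin against labelled R1881 and for labelled R1881 against labelled vehicle were 12 of 12 (10 of 10 with 1 probe set per gene) in each. For gedunin against labelled vehicle 9 were called, and leaving out single arrays gave 7 to 10. With the replicate block, the counts were 12, 10 and 12 for gedunin against labelled R1881, gedunin against labelled vehicle and labelled R1881 against labelled vehicle. A block within only the 6 arrays compared, chosen after seeing the data, gave the same 3 counts. The block changed 1 member call: SDF2L1 against labelled vehicle passed at an adjusted p of 0.0407, as it also did with 1 probe set per gene (0.0436), without dim probe sets (0.0308), with 6 arrays (0.0282), with a variance trend (0.0326) and with an offset of 16 (0.0332). With arrays centred on the median, DNAJB9 202843_at lost its call there (0.0563). No called direction was reversed in these fits. In the pathway lists, 4 counts moved by over 1.5 times. On R1881-labelled against vehicle-labelled arrays, 1 to 4 translocation genes and 0 to 1 sensor genes were higher. With gedunin, 0 to 2 sensor genes were higher than on vehicle-labelled arrays, and 0 to 1 were lower than on R1881-labelled arrays. The CHGB call for gedunin against labelled R1881 was lost with the replicate block (0.0635), with 6 arrays (0.0639) and with an offset of 16 (0.0961). With 1 probe set per gene, fewer features were tested, and 3277, 3219 and 3624 genes were called over the whole array, against 5406, 5223 and 6007 probe sets.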
